A study of Mus musculus with 20 samples.

Results

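The Notch pathway carries signals between touching cells. Ligands on one cell (Dll1, Dll3, Dll4, Jag1 and Jag2 in the mouse) meet receptors on its neighbour (Notch1 to Notch4), the receptor is cut, and its intracellular part joins Rbpj, the DNA-binding protein that switches Notch target genes on. In the presomitic mesoderm, the embryonic tissue from which somites form, Dll1, Notch1 and cyclic targets such as Hes7 and Lfng are parts of the segmentation clock. The genes described here are these 5 ligands, 4 receptors and Rbpj, chosen by symbol, and all 10 were found among the 55421 transcripts of the deposited tables.

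The 20 RNA-seq libraries are from mouse: 10 are of colonies differentiated towards presomitic mesoderm (iPSM, induced presomitic mesoderm), and 10 of the stem cells themselves (ESC, embryonic stem cells). In both cell types, tetO-Clock/Bmal1 lines (CB) switch on the circadian activators Clock and Bmal1 with doxycycline (dox), and tetO-Clock/Bmal1DN lines (DN) carry the construct that the labels write as Bmal1DN. A line whose label names neither tetO construct, here called the control line, was measured in each cell type as well. The iPSM colonies came from E14TG2a cells that carry luciferase under the Hes7 promoter and received 1000 ng/mL dox for 2 hours, and the ESC were KY1.1 cells that received 500 ng/mL for 6 hours. Each clone gave 1 library with dox and 1 without. The iPSM clones were 12 and 20 for CB and 7 and 19 for DN, and the ESC clones were 1 and 7 for CB and 5 and 6 for DN. The control lines were sequenced once per condition, so their values have no replicate check. Every group therefore rests on at most 2 clones of 1 parental line. The p-values rest on the spread between clones within groups, pooled over all groups of a fit, and do not cover other parental lines.

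Library totals lay between 38.2 and 57.3 M (mega) counts, and the untreated iPSM control library stood apart, with reads over 69.4% of transcripts against 50.2% to 54.0% in the other iPSM libraries. Clock and Arntl (the mouse symbol of Bmal1) rose with dox in the 8 transgenic clones and not in the control lines, by 3.18 to 5.24 (log2 CPM, counts scaled to a common library total) for Clock. Arntl rose by 4.41 to 6.52 in 7 of those clones and by 1.21 in iPSM DN clone 19, where it reached 153 CPM with dox against 66.0 CPM without. The 8 presomitic mesoderm markers summed to 681 to 1207 CPM in iPSM and 13.1 to 64.7 CPM in ESC, and the 8 pluripotency markers to 190 to 367 CPM in iPSM and 1462 to 2145 CPM in ESC. Of the 8 somite markers, which summed to 16.9 to 181 CPM in iPSM and 19.1 to 43.1 CPM in ESC, Aldh1a2 had 11.9 to 172 CPM in iPSM and at most 2.5 CPM in ESC, Tcf15 had 2.07 to 4.09 CPM in iPSM and 15.4 to 41.1 CPM in ESC, and Mesp2 and Uncx stayed at or below 0.222 CPM in every iPSM library. Of the 7 somite markers tested between untreated iPSM and ESC, 2 were higher and 3 lower in iPSM.

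Of the 10 genes, Dll4 is the one whose level passed the test after dox, so the start of its transcription unit is shown. The window runs from 250 bases before to 50 bases after the RefSeq start (GRCm38.p6, chr2:119325534-119325833, plus strand), which is also the start used in the deposited mm10 table. Capitals mark the 50 bases from the start onwards.
Dll4: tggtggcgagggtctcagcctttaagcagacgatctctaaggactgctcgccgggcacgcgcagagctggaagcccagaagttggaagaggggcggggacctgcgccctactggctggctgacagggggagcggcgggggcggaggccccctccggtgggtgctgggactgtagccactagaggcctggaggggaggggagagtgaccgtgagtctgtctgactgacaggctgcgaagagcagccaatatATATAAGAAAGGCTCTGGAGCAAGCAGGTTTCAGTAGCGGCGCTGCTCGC
Neither strand of this window held the canonical E-box CACGTG, the variant CACGTT or the RBPJ site GTGGGAA. These letters occur on either strand in 7.15%, 4.68% and 6.38% of all 32851 RefSeq windows of that length. The other 11 windows listed for the 10 genes held none of the 3 motifs either. The absence of these letters covers only the 300 bases searched in each window.

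Before dox, the iPSM colonies carried far more Dll1, Dll3 and Notch1 RNA than the ESC, while Jag2 was lower. Dll4 was lower in the fit as well, at very few counts, but by the group means only in the DN clones. Notch2 was modestly higher, and the levels of Jag1, Notch3, Notch4 and Rbpj did not pass the test between the cell types. The comparison used the 4 untreated CB and DN clones of each cell type in 1 edgeR fit of all 20 libraries (edgeR's quasi-likelihood test with Benjamini-Hochberg adjustment, threshold 0.05, two-sided). Levels below are RPKM over the gene body, introns included. Fewer cells of a type and less RNA per cell cannot be told apart in these bulk samples. The cell type, parental line and culture differ together between the groups and cannot be told apart either.

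**Figure D1:**
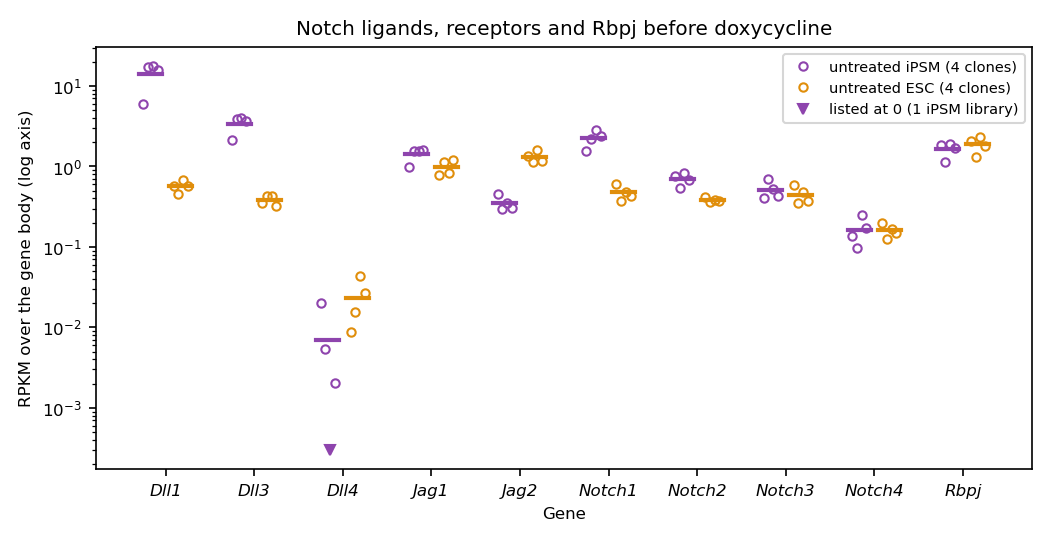
Level of each gene without dox in RPKM over the gene body (log axis), with 4 iPSM clones left of 4 ESC clones, circles for single libraries and bars for means; a triangle marks the iPSM library listed at 0 for Dll4. The iPSM points for Dll1, Dll3 and Notch1 lie above all ESC points, and those for Jag2 lie below them.

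Dll1, the Delta ligand that activates Notch in presomitic mesoderm, stood at 5.99, 17.03, 17.6 and 16.0 RPKM in iPSM clones 12, 20, 7 and 19, against 0.577, 0.456, 0.686 and 0.572 RPKM in ESC clones 1, 7, 5 and 6. The groups did not overlap, and clone 12 was the low one among the iPSM. The log2 fold change was 4.43 ± 0.345 (SE, n = 4 clones each, edgeR adjusted p = 5.03e-08). Dll3, a divergent Delta protein of the presomitic mesoderm that does not activate Notch on neighbouring cells, had 2.13, 3.84, 3.999 and 3.66 RPKM in the same iPSM clones and 0.354, 0.427, 0.426 and 0.325 RPKM in the ESC clones. These groups did not overlap either, and clone 12 was again the lowest iPSM clone. Dll3 was higher in iPSM by 2.96 ± 0.253 (log2, SE, adjusted p = 1.29e-07).

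Notch1, the receptor best known from somite formation, had 1.54, 2.17, 2.81 and 2.41 RPKM in iPSM and 0.611, 0.377, 0.487 and 0.432 RPKM in ESC. Each iPSM clone lay above each ESC clone, and the difference was 2.02 ± 0.249 (log2, SE, edgeR adjusted p = 5.19e-06). Notch2, a receptor with the same overall architecture, had 0.543 to 0.828 RPKM in iPSM and 0.366 to 0.416 RPKM in ESC, a difference of 0.65 ± 0.168 (log2, SE, adjusted p = 0.00342).

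Jag2, a Jagged-type ligand, had 0.459, 0.298, 0.356 and 0.309 RPKM in iPSM and 1.34, 1.14, 1.60 and 1.16 RPKM in ESC. No iPSM clone reached the lowest ESC clone, and Jag2 was lower in iPSM at a log2 fold change of -2.08 ± 0.161 (SE, edgeR adjusted p = 4.92e-08). Dll4, the Delta ligand known from sprouting vessels, was scarce in both: 0.0202, 0.0054 and 0.002 RPKM in iPSM clones 12, 20 and 19, listed at 0 in clone 7, and 0.00866 to 0.0433 RPKM in ESC. The ranges overlapped. In the CB clones the mean was 0.0128 RPKM in iPSM and 0.0120 RPKM in ESC, and in the DN clones 0.00101 and 0.0350 RPKM. The lower iPSM value thus lay in the DN clones. Over both lines the fitted log2 fold change was -2.50 ± 0.624 (SE, edgeR adjusted p = 0.00277). It was -3.64 without iPSM DN clone 19 and -3.19 without iPSM CB clone 12, and passed both times. The summed CPM of 8 endothelial markers was also lower in the iPSM libraries (8.59 to 14.4) than in the ESC libraries (46.5 to 102). Most of that sum was Pecam1, a surface protein that stem cells also carry, and its part in the Dll4 difference was not tested. Feeder cell markers were lower in iPSM as well, 8 of 10 passing with a median log2 fold change of -3.62, and they summed to 70.3 to 94.9 CPM in the untreated iPSM clones and 138 to 715 CPM in the untreated ESC clones. Neural markers gave 5 lower and 1 higher of 7 tested. The part of these markers in the values of the 10 genes was not tested.

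For Jag1, the second Jagged ligand, the difference was 0.33 ± 0.239 (log2, SE, edgeR adjusted p = 0.25). Notch3, the receptor known from vascular smooth muscle, had 0.02 ± 0.321 (log2, SE, adjusted p = 0.998), with a sign that turned under other scalings. For Notch4, a receptor known from endothelium, the value was -0.23 ± 0.231 (adjusted p = 0.402), and for Rbpj it was -0.40 ± 0.189 (adjusted p = 0.0812). Rbpj passed with no filter on low counts (-0.46, adjusted p = 0.00354), without ESC clone 7 of CB (-0.55, adjusted p = 0.0237) and without iPSM clone 12 (-0.56, adjusted p = 0.0289). Of the 10 genes, 4 were higher and 2 lower in iPSM, in a comparison in which 31.3% of all 26689 tested genes were higher and 28.8% lower. The median log2 fold change of the 10 was 0.17, against 0.05 over all tested genes.

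The order of the levels differed accordingly. In iPSM, Dll1 led with 14.2 ± 5.49 RPKM (SD, n = 4), followed by Dll3 at 3.41 ± 0.861, Notch1 at 2.23 ± 0.534, Rbpj at 1.65 ± 0.360 and Jag1 at 1.43 ± 0.305. Below these came Notch2, Notch3, Jag2, Notch4 and Dll4. Dll1 did not overlap its neighbour Dll3, whereas each of Dll3, Notch1 and Rbpj overlapped the next in order, and Jag1 lay clear of Notch2. In ESC, Rbpj led with 1.90 ± 0.443 RPKM, ahead of Jag2 at 1.31 ± 0.213 and Jag1 at 0.994 ± 0.220, and these neighbours overlapped. Dll1, Notch1, Notch3, Notch2 and Dll3 followed, between 0.573 and 0.383 RPKM, with each neighbouring pair among them overlapping, and Notch4 and Dll4 closed both orders. A scale per kilobase of mRNA in place of gene body was added after seeing the data. By the means, Dll1 and Dll4 kept the first and last place in iPSM and Rbpj and Dll4 in ESC. Dll1 now overlapped Rbpj, the next in iPSM. Clone 12 had 14.8 counts per kilobase at a common library total for Dll1 and 23.5 for Rbpj. On that scale 11 of the 20 ranks moved, among them Notch2, which has long introns, from the seventh place to the fourth in ESC.

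Taken as shares of the 5 ligands' summed RPKM, Dll1 held 62.6% to 74.9% in the untreated iPSM clones and 14.4% to 19.1% in the untreated ESC clones. Jag2 held 1.31% to 4.80% in iPSM and 35.1% to 44.5% in ESC, and Jag1 6.68% to 10.2% in iPSM and 23.2% to 37.0% in ESC. The ligand mixture was thus mostly Dll1 with Dll3 in iPSM, and mostly the 2 Jagged ligands in ESC, where Jag1 was slightly above Jag2 in 2 of the 4 clones and, per kilobase of mRNA, in the mean over the clones. Among the 4 receptors, Notch1 held 54.4% to 65.4% of the summed RPKM in iPSM and 31.0% to 33.9% in ESC, where Notch3 held 28.0% to 32.1% and Notch2 23.0% to 30.1%. This order depended on the length used: per kilobase of mRNA, Notch2 led the ESC receptors with a mean of 5.07 counts per kilobase at a common library total, against 2.58 for Notch3 and 2.33 for Notch1, and in iPSM Notch1 and Notch2 stood at 11.04 and 9.30.

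Of 71 other pathway genes, 30 were higher in untreated iPSM than in ESC, 18 lower and 23 not past the threshold. With 31.3% of all tested genes higher and 28.8% lower, calls in both directions were common among all genes, and the lists below are descriptions. Nuclear coactivators split into 5 higher and 3 lower of 8, with Maml3, a Mastermind coactivator, at 5.41 ± 0.237 (log2, SE, edgeR adjusted p = 2.65e-10). Kat2b, an acetyltransferase, was lower at -1.89 ± 0.147. Of 12 targets 6 were higher and 3 lower. Hes7, the cyclic repressor whose promoter drives the reporter of the iPSM line, stood at 7.40 ± 0.466, and Nrarp, a feedback inhibitor, at 2.701 ± 0.381.

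Of 9 cleavage genes 5 were higher and 2 lower, with the ADAM protease Adam10 at 2.52 ± 0.164 (log2, SE, edgeR adjusted p = 8.40e-09) and Psen2, a catalytic subunit of gamma-secretase, at -0.86 ± 0.166. Of 7 ligand ubiquitination genes 2 were higher and 2 lower, and the E3 ligases Mib1 and Mib2 stood at 1.24 ± 0.112 and -1.69 ± 0.191. Among 6 glycosylation genes, Eogt was higher at 1.88 ± 0.201 and Mfng, a Fringe enzyme, lower at -1.98 ± 0.218. Of 11 turnover genes 5 were higher and 3 lower, with Numb, an inhibitor of Notch, at 1.43 ± 0.198 and Dtx1, an E3 ligase, at -3.21 ± 0.274. The 13 corepressors gave 4 higher and 2 lower. The 6 noncanonical ligands gave 2 higher and 3 lower, with the microfibril proteins Mfap2 at 4.64 ± 0.587 and Mfap5, a product of fibroblasts, at -4.22 ± 0.319, beside the feeder markers given above.

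The next question was which of the 10 genes changed within 2 hours of inducing Clock and Bmal1 in iPSM. Dll4 rose, and the levels of the abundant components Dll1, Dll3, Notch1, Notch2 and Rbpj did not pass the test. With dox, clones 12 and 20 had 59 and 99.5 deposited Dll4 counts, against 10 and 2.5 without. In CPM this was 1.42 and 2.14 with dox and 0.204 and 0.0478 without. Both treated libraries lay above both untreated ones. The log2 fold change was 3.75 ± 0.624 (SE, n = 2 clones, edgeR adjusted p = 0.0141), a 13.5-fold rise.

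That change started from a very low base, and with dox Dll4 still made up 1.42% and 0.928% of the 5 ligands' summed RPKM in clones 12 and 20. The ratio of the summed counts was 13.7, with an exact 95% interval of 7.63 to 27.1 that covers counting error only. Without treated clone 20 the log2 fold change was 3.43 and did not pass (edgeR adjusted p = 0.242), and it passed without any 1 of the other 3 libraries, at 5.14 without untreated clone 12, 3.11 without untreated clone 20 and 4.01 without treated clone 12. The 8 endothelial markers summed to 13.7 and 8.59 CPM with dox and to 13.9 and 9.79 CPM without, again mostly Pecam1. None of the 7 tested passed, and their median log2 fold change was -0.04. Members went both ways: Cdh5 had 0.0222 and 0 CPM with dox and 0.190 and 0.0890 CPM without, whereas Esam had 1.31 and 1.34 CPM with dox and 0.853 and 1.05 CPM without. Emcn was at 0 in 3 of these 4 libraries and Sox18 in all 4.

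The 8 neural markers summed in the same CB clones to 8.86 and 10.1 CPM with dox and 7.02 and 6.01 CPM without. Their median log2 fold change was 1.01 in CB and 0.00 in DN, and none of the 7 tested passed in either. Sox1, a neural transcription factor, had 1.27 and 2.80 CPM with dox and 0.569 and 0.445 CPM without, and Zic1 had 0.800 and 0.662 CPM with dox and 0.171 and 0 CPM without. Their part in the Dll4 result was not tested. The 8 presomitic mesoderm markers had a median log2 fold change of -0.40 in CB and -0.08 in DN, and none passed. With dox, T, Tbx6, Msgn1, Wnt3a, Cyp26a1 and Rspo3 were lower in both CB clones, Fgf8 was lower in clone 20 only, and Hes7 was higher in both. Tbx6 had 12.75 and 31.35 CPM with dox and 20.23 and 51.21 CPM without. The part of these markers in the Dll1 and Dll3 values was not tested.

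Gm14207, annotated on the strand opposite to Dll4, had 0.482 and 0.342 CPM in the same 2 treated libraries and 0.0204 and 0 CPM in the untreated ones. Its own test gave an adjusted p of 0.227. Among transcripts nested in another gene, the upper quartile of read density relative to the host was 0.0843 on the opposite strand and 1.13 on the same strand in iPSM. Reads were thus largely, though not wholly, assigned by strand. Per length, Gm14207 had 0.0950 and 0.0657 RPKM in treated clones 12 and 20, and Dll4 had 0.138 and 0.201 RPKM. Whether reads of 1 strand were counted on the other was not tested for this pair.

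**Figure D2:**
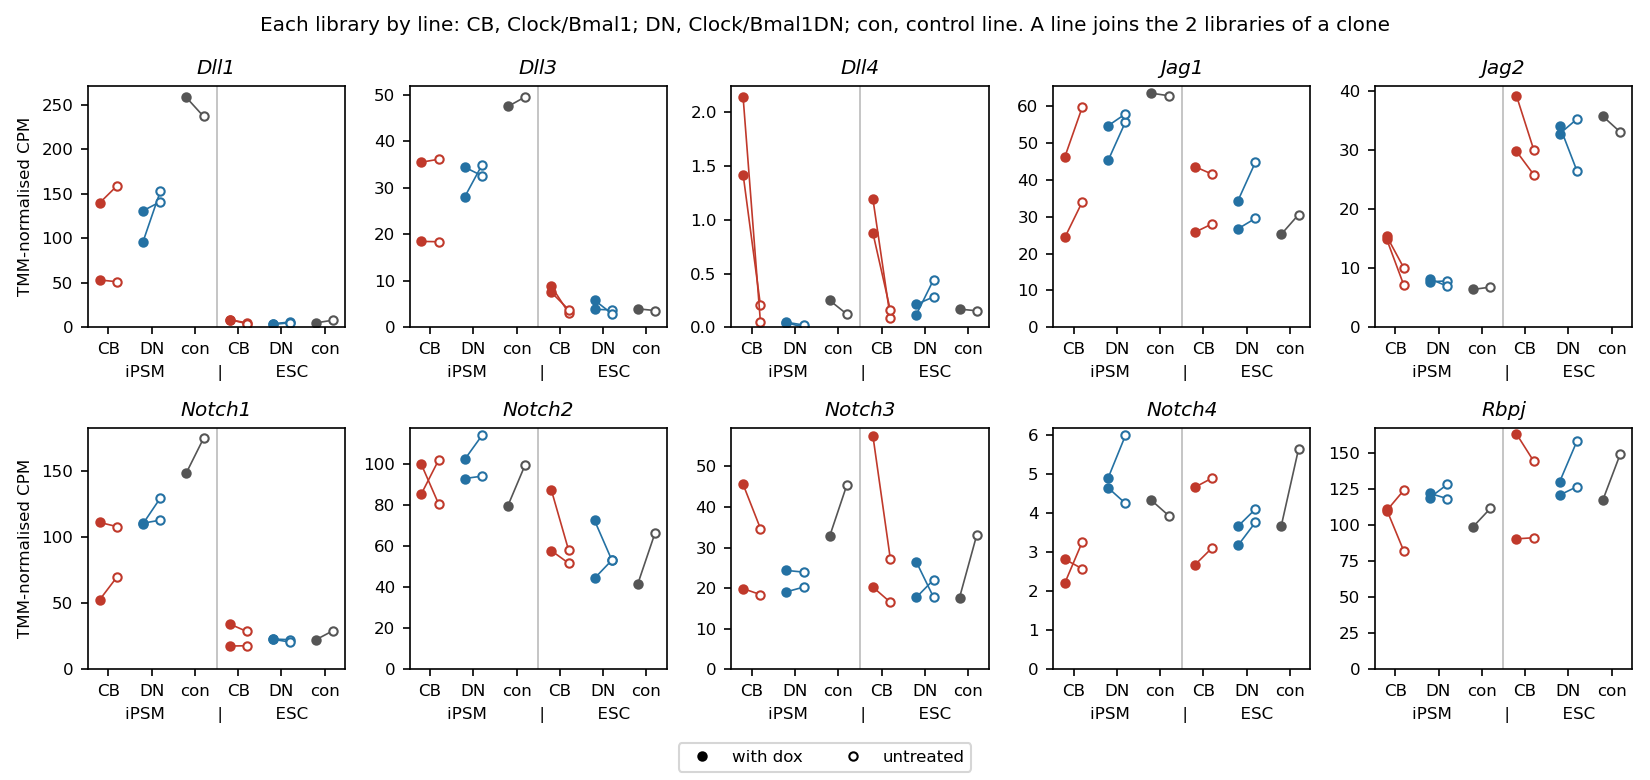
TMM-normalised CPM of each gene in all 20 libraries, with iPSM left of ESC and, within each line (CB, DN, con for control), filled circles with dox left of open circles without; lines join libraries of a clone. Dll4 is high in the treated CB libraries of both cell types, and Dll1, Dll3 and Notch1 stay in separate iPSM and ESC ranges.

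Jag2 was the other ligand that was higher with dox in both iPSM CB clones, at 15.5 and 15.0 CPM with dox and 10.03 and 7.10 CPM without. The groups did not overlap, and the log2 fold change of 0.83 ± 0.210 (SE, n = 2 clones, edgeR adjusted p = 0.147) did not pass. With the clone as a block, which pairs the 2 libraries of each clone, the value was 0.85 and passed (adjusted p = 0.0487). It also passed without untreated clone 12 (1.1, adjusted p = 0.018). No other member of the 10 had an unadjusted p under 0.05 in this comparison.

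Dll1 had 53.2 and 140 CPM with dox in clones 12 and 20, against 51.3 and 159 CPM without. The 2 clones differed far more from each other than either did from its own untreated library. The fitted value was -0.12 ± 0.472 (log2, SE, edgeR adjusted p = 1). Dll3 likewise had 18.5 and 35.5 CPM with dox and 18.4 and 36.1 CPM without, at -0.01 ± 0.321. Jag1 had 24.4 and 46.2 CPM with dox and 33.9 and 59.6 CPM without, lower within each clone but with overlapping groups (-0.40 ± 0.295, adjusted p = 1). For Dll1 and Dll3 the sign turned without treated clone 12 or untreated clone 20 (0.40 and 0.91 for Dll1, 0.37 and 0.55 for Dll3), and for Jag1 without untreated clone 20 (0.05). These unpaired fits keep the other library of the left-out clone, so the difference between the clones enters their values. Within clones 12 and 20, log2 CPM changed with dox by 0.05 and -0.18 for Dll1 and by 0.007 and -0.03 for Dll3. For Jag1 the changes were -0.48 and -0.37. The remaining fitted values lay between -0.21 for Notch4 and 0.30 for Notch3.

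Of the 10 genes, 1 rose and 9 did not pass, where 0.996% of all 24805 tested genes rose and 0.0282% fell. The median of the 10 was 0.00, against -0.02 over all tested genes. Of 70 other pathway genes tested, 4 rose. Hes1, a transcriptional repressor downstream of Notch, rose by 2.58 ± 0.249 (log2, SE, edgeR adjusted p = 0.000543), and Ripply2, a segmentation gene, by 5.01 ± 0.738. Lfng, the Fringe glycosyltransferase that modifies Notch receptors in the segmentation clock, rose by 2.35 ± 0.432 (adjusted p = 0.0253). Dlk1, a Delta-like protein outside the canonical ligands, rose by 5.01 ± 0.457.

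In the DN clones of iPSM none of the 10 genes passed, among 0.00403% of all genes that rose and 0% that fell. Arntl reached 888 and 153 CPM with dox in DN clones 7 and 19, against 3216 and 4702 CPM in CB clones 12 and 20. The part of this lower level in the DN values, and in the difference of CB and DN effects, was not tested. At an unadjusted p under 0.05, edgeR counted 0 of the 10 and 159 genes in all, and DESeq2 called none of the 10 either. Dll4 counts were 2 and 2 with dox and 0 and 1 without, a ratio of 3.96 with an exact interval of 0.392 to 195. These are too few counts to show a difference. Dll1 had 96.0 and 131 CPM with dox in clones 7 and 19 and 153 and 141 CPM without (-0.37 ± 0.472, log2, SE, adjusted p = 1). In the control line Dll4 had 10 counts with dox and 5 without, and Jag2 had 6.42 and 6.81 CPM.

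The difference of the CB and DN dox effects in iPSM was tested in the same fit. None of the 10 genes passed, whereas 0.278% of all genes were higher in CB and 0% lower. At an unadjusted p under 0.05, edgeR counted 1 of the 10 and 856 genes in all, and DESeq2 called none of the 10. Jag2 had a difference of 0.72 ± 0.298 (log2, SE, edgeR adjusted p = 1). For Dll4 the near absence of DN counts leaves no usable fitted difference. Of the other pathway genes, Hes1 at 2.59 ± 0.341 (adjusted p = 0.011) and Dlk1 at 4.70 ± 0.635 (adjusted p = 0.0124) passed.

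**Figure D3:**
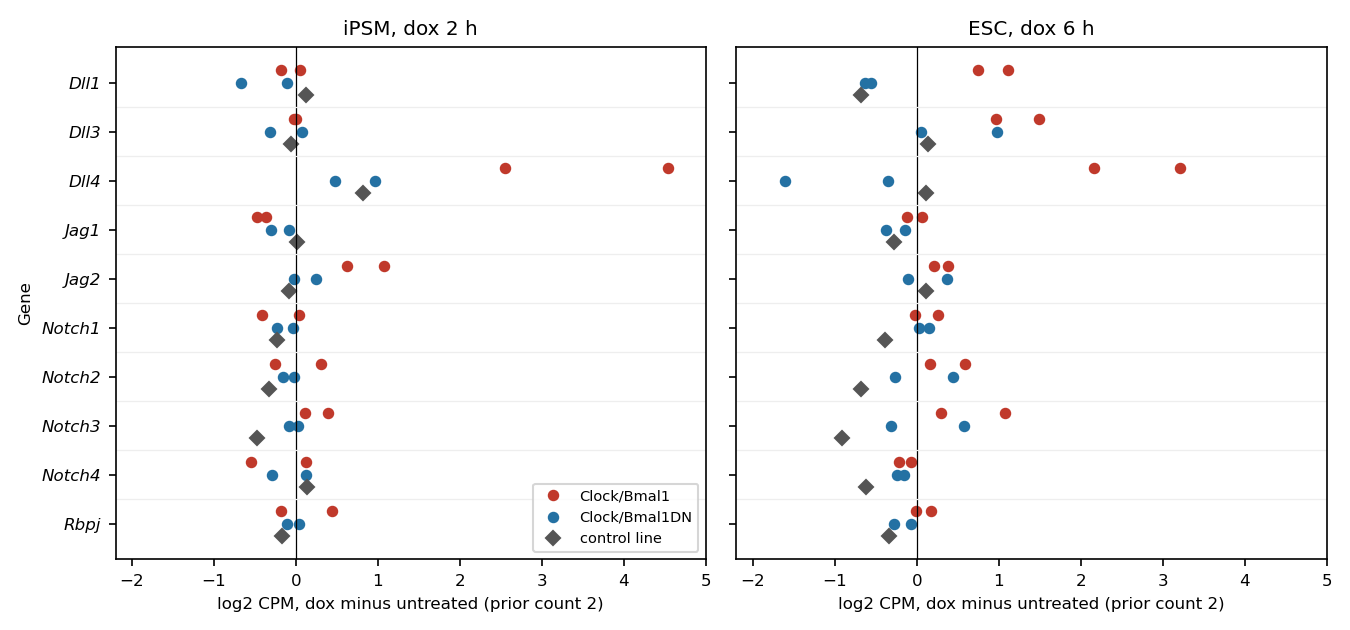
Change in log2 CPM (dox minus untreated, prior count 2) for each gene, with 1 point per clone, CB above DN above the control line, and iPSM (2 h of dox) left of ESC (6 h). Both CB points lie right of 0 for Dll1, Dll3, Dll4, Jag2, Notch2 and Notch3 in ESC, and for Dll4, Jag2 and Notch3 in iPSM.

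In ESC after 6 hours of Clock and Bmal1, the 3 Delta ligands were higher in both CB clones, as were Jag2, Notch2 and Notch3. None of the 10 genes passed the threshold. Dll4 had 51.5 and 36 counts with dox in clones 1 and 7 and 5 and 9 counts without. Neither treated library overlapped the untreated ones, and the log2 fold change was 3.01 ± 0.602 (SE, n = 2 clones, edgeR adjusted p = 0.099). The ratio of summed counts was 8.73, with an exact 95% interval of 4.93 to 16.6. Dll4 passed in DESeq2 (adjusted p = 0.034), and in edgeR with no filter on low counts (adjusted p = 0.00179).

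Dll3 had 8.88 and 7.54 CPM with dox and 3.14 and 3.83 CPM without. The groups did not overlap, at 1.24 ± 0.310 (log2, SE, edgeR adjusted p = 0.219), and DESeq2 called it (adjusted p = 0.0226). Dll1 had 8.53 and 8.80 CPM with dox and 5.08 and 4.06 CPM without, again with no overlap, at 0.92 ± 0.266 (adjusted p = 0.334). Notch3 had 57.4 and 20.3 CPM with dox and 27.3 and 16.5 CPM without, and its groups overlapped (0.83 ± 0.450, adjusted p = 0.705). Without treated clone 1 its sign turned (-0.11). The remaining 6 genes, Jag1, Jag2, Notch1, Notch2, Notch4 and Rbpj, had fitted values between -0.13 and 0.40.

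The 0 of 10 stood against 0.404% of all 22500 tested genes that rose and 0.0178% that fell. At an unadjusted p under 0.05 there were 3 of the 10 genes and 1686 genes in all, and DESeq2 called 2 of the 10. The median of the 10 was 0.35, against -0.01 over all genes. Of 67 other pathway genes tested, Lfng rose by 2.81 ± 0.242 (log2, SE, edgeR adjusted p = 0.00298) and Dlk1 by 5.00 ± 0.779 (adjusted p = 0.0316), and the other 65 did not pass. In the ESC the summed feeder markers were 172 and 352 CPM with dox and 138 and 377 CPM without in CB clones 1 and 7. Neural markers summed to 142 and 154.5 CPM with dox and to 119.9 and 128.6 CPM without, with a median log2 fold change of 0.44. Zic1 had 2.33 and 4.47 CPM with dox and 0.195 and 0.513 CPM without, while Olig2 had 3.86 and 4.09 CPM with dox and 7.26 and 6.54 CPM without. Presomitic mesoderm markers had a median of -0.49, with a sum of 13.1 and 32.2 CPM with dox and 23.6 and 64.7 CPM without. None of the tested members of these 3 lists passed, and their part in the ligand values was not tested.

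In the ESC DN clones Dll1 was lower with dox in both clones, with 4.02 and 3.30 CPM with dox and 5.95 and 5.14 CPM without in clones 5 and 6. The groups did not overlap, and the value was -0.60 ± 0.268 (log2, SE, n = 2 clones, edgeR adjusted p = 0.983). The ESC control line, however, also had less Dll1 with dox, 5.03 CPM with and 8.12 CPM without. Dll4 had 5 and 9 counts with dox and 19 and 13 without (-1.12 ± 0.615, adjusted p = 0.983), a count ratio of 0.470 with an exact interval of 0.232 to 0.906. Dll3 had 3.88 and 5.83 CPM with dox and 3.73 and 2.94 CPM without (0.54 ± 0.310, adjusted p = 0.983). The feeder marker sum in clone 6 was 115 CPM with dox and 715 CPM without, and its part in these DN values was not tested. None of the 10 genes passed, where 0.00444% of all genes rose and 0% fell. Neither edgeR at an unadjusted p under 0.05 nor DESeq2 counted any of the 10, and edgeR counted 900 genes in all at that p.

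The difference of the CB and DN effects in ESC was 4.13 ± 0.858 for Dll4 (log2, SE, edgeR adjusted p = 0.278) and 1.52 ± 0.378 for Dll1 (adjusted p = 0.443). Both had an unadjusted p under 0.05 and neither passed. For Dll3 the difference was 0.69 ± 0.436 (edgeR adjusted p = 0.995). Its log2 CPM rose with dox by 0.98 in DN clone 6 and by 0.06 in DN clone 5. None of the 10 genes passed, against 0.0578% of all genes higher in CB and 0% lower, with 1070 genes at an unadjusted p under 0.05 and none of the 10 called by DESeq2. Without the filter on low counts Dll4 passed at the same size. Lfng passed, at 2.49 ± 0.327 (adjusted p = 0.0483).

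The CB dox effect in iPSM minus that in ESC was set out in the fit of all 20 libraries, with dose, time, line and cell type differing together. For Dll3 it was -1.31 ± 0.472 (log2, SE, edgeR adjusted p = 1), for Dll1 -1.099 ± 0.607, for Dll4 0.69 ± 0.896 and for Jag2 0.47 ± 0.310. Single libraries moved these values widely: Dll1 was -0.06 without untreated iPSM clone 20 and -1.945 without treated clone 20, and Dll4 was 0.04 without untreated iPSM clone 20 and 2.065 without untreated clone 12. Here too the other library of the left-out clone stayed in the unpaired fit. None of the 10 passed, and neither did any other gene (0% in each direction), with 1074 genes at an unadjusted p under 0.05, 1 of them among the 10. DESeq2 called 15 genes and none of the 10. A difference between the cell types in how the Delta ligands respond was therefore not shown.

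Without dox, CB and DN clones were compared to see how far the lines differ before induction. In iPSM none of the 10 genes passed and 0% of genes passed in either direction, with 1190 genes at an unadjusted p under 0.05, 2 of them among the 10, and 25 genes called by DESeq2, none of them among the 10. Notch4 had 3.26 and 2.58 CPM in the CB clones and 6.00 and 4.26 CPM in the DN clones, without overlap (-0.81 ± 0.266, log2, SE, edgeR adjusted p = 0.842). The other of the 2 was Dll4, higher in CB, with 10 and 2.5 counts there and 0 and 1 in DN (3.21 ± 1.143, adjusted p = 0.842). Leaving out untreated CB clone 12 raised the number of genes called to 1779, with Rbpj among them (-0.59, adjusted p = 0.0231). In ESC none of the 10 passed, and 0% of genes were higher and 0.00889% lower in CB. Dll4 there had 5 and 9 counts in CB and 19 and 13 in DN (-1.51 ± 0.614, adjusted p = 1). This was the only one of the 10 with an unadjusted p under 0.05 in ESC, where 358 genes had one, and DESeq2 called none of the 10.

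Across the iPSM libraries several of these genes moved together. Over the 8 transgenic iPSM libraries, which share clones, Pearson's r of log2 CPM was 0.992 for Dll1 and Dll3, 0.942 for Jag1 and Notch1 and 0.925 for Dll1 and Jag1. Most of that spread was clone 12, which was low with and without dox. Its Dll1 was 53.2 CPM with dox and 51.3 CPM without, where the other 6 libraries had 96.0 to 159 CPM. The summed somite markers of clone 12 were 16.9 CPM with dox and 25.4 CPM without, against 69.4 to 120 CPM in the other 6, and consisted mainly of Aldh1a2. Its presomitic mesoderm markers were 681 CPM with dox and 744 CPM without, with 721 to 1181 CPM in the other 6. Most of the clone 12 sum was T, at 462 CPM with dox and 475 CPM without. Its T, Msgn1 and Hes7 overlapped the other 6 libraries, whereas Tbx6, Wnt3a, Fgf8, Cyp26a1 and Rspo3 lay below all of them. Tbx6, for instance, had 12.75 CPM with dox and 20.23 CPM without, against 31.35 to 57.48 CPM. The part of these marker levels in the Notch values was not tested. Dll4 and Jag2, both highest in the treated CB libraries, had an r of 0.968.

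**Figure D4:**
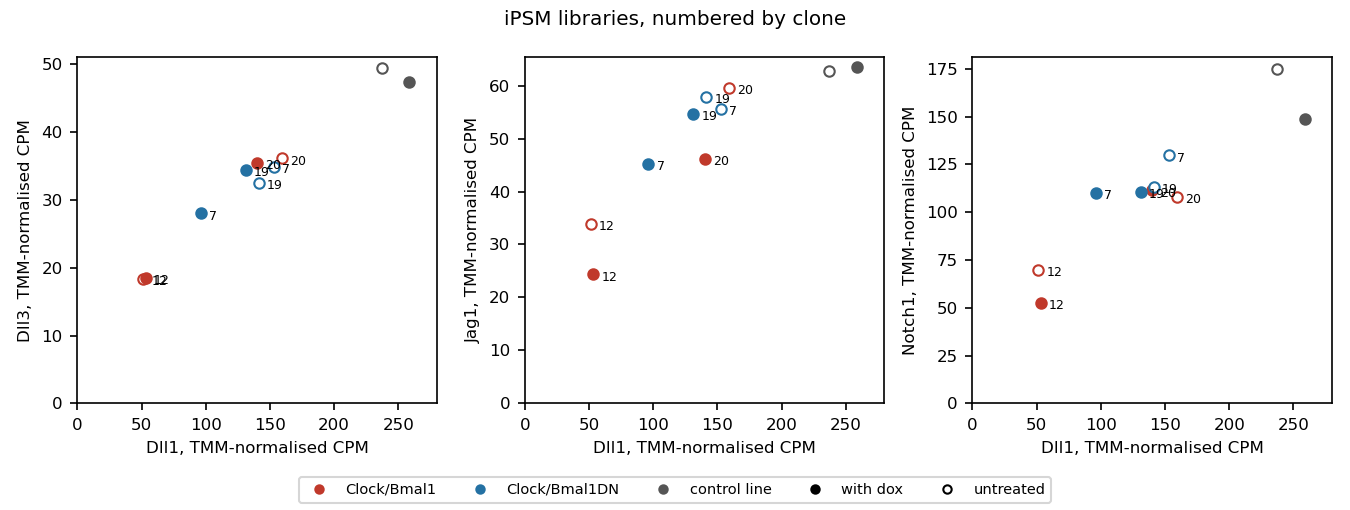
Dll3, Jag1 and Notch1 against Dll1 (TMM-normalised CPM) in the 10 iPSM libraries, filled with dox and open without, coloured by line and numbered by clone. Both libraries of clone 12 lie at the low end of all 3 panels and the control line at the high end.

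Over the same 8 libraries, the genes most like Dll1 among 15314 with a mean of at least 1 CPM were Dll3 (r = 0.992), Pth1r (0.986) and Scoc (0.982). For Dll3 they were Dll1, Gm49510 (0.988) and Scoc (0.984). Notch1 was followed by Fancm (0.993), Aldh1a2 (0.987), a retinoic acid synthesis enzyme, and Gm5577 (0.986). In the 8 transgenic ESC libraries other genes led. Pip4p1 (r = 0.984), Spry1 (0.981) and Dbp (0.978), a circadian output gene, were nearest to Dll1, and Stc2 (0.987), Hapln4 (0.987) and Gm28044 (0.978) to Dll3. For Notch1 in ESC they were Pcsk6 (0.993), Zfyve26 (0.974) and Ticrr (0.974). Dll1 and Dll3 had an r of 0.544 in ESC. The named genes were picked for the highest r among all such genes, over only 8 libraries that share clones and dox treatment. They are a description, and no link to Dll1, Dll3 or Notch1 was tested.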

How the data were processed

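The deposited tables, 1 per cell type, hold expected counts in steps of 0.5 and RPKM for each transcript. Per the submitters' processing notes the tools were bcl2fastq, STAR 2.7.2a and HOMER with mm10, and the authors' RPKM scale those deposited counts by the gene body with introns. The libraries were stranded total RNA, per the labels' protocols. Total counts per library of 38.2 to 57.3 M set the precision.

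Counts were rounded to whole numbers (18.1% ended in 0.5). The 10 libraries of a cell type entered 1 fit of 6 groups (4 residual degrees of freedom), and all 20 libraries 1 fit of 12 groups. R 4.3.3 and edgeR 4.0.16 were used (TMM, filterByExpr, glmQLFit, glmQLFTest), with Benjamini-Hochberg adjustment over all tested genes. DESeq2 1.42.0 and the other settings in the closing section were alternatives. Standard errors (SE) came from dividing each log2 value by its root F statistic. CPM use TMM-scaled totals, and a prior count of 2 where log2 CPM are given. Exact 95% intervals and counts below 3 concern counting error only, since the reads carry no molecular identifiers.

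Libraries with and without dox of the same clone come from the same cell line, so the clone pairs them. The main fits did not use this pairing. The difference between the 2 clones of a line without dox was correlated over genes with their difference with dox. Pearson's r was 0.422 in ESC CB, -0.0125 in ESC DN, 0.189 in iPSM CB and 0.0872 in iPSM DN. It describes how far clone differences persisted, and not how alike the dox changes of the 2 clones were.

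The members and the 9 pathway and 6 marker lists were chosen with earlier results of these data known. All 10 members are named or given by range for untreated iPSM against ESC and for the CB dox effect in each cell type. The other comparisons name only some of the 10, and none of the 10 passed there in the main fits. Also named are up to 4 genes past the threshold per pathway list by adjusted p, and the 3 genes most correlated with Dll1, Dll3 and Notch1. Sequences come from RefSeq (GRCm38.p6), which matched all 10 symbols.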

Additional observations from a re-analysis of the deposited data

Results flagged for a closer look

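Among 20 groups of 4 untreated clones (10 genes in each cell type), 2 had 1 library far from the others, and chance flags about 1 in 20. Both concern untreated iPSM CB clone 12, which had 5.99 RPKM of Dll1, where the other 3 untreated clones had 16.0 to 17.6 RPKM. Its Jag1 was 0.971 RPKM, where the other 3 had 1.56 to 1.60 RPKM.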

How the results depend on the processing

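With 2 clones per group, the number of genes called depended on the settings. With no filter on low counts, the counts were 537 (ESC CB dox effect), 463 (ESC DN), 410 (ESC CB minus DN), 45 (untreated ESC CB against DN), 597 (iPSM CB), 8 (iPSM DN), 280 (iPSM CB minus DN), 221 (untreated iPSM CB against DN) and 87 (CB effect in iPSM minus ESC), against 95, 1, 13, 2, 254, 1, 69, 0 and 0 in the main fits. DESeq2 gave 359, 7, 130 and 9 in the 4 ESC comparisons, 154 for iPSM CB minus DN, 25 for untreated iPSM lines and 15 for iPSM minus ESC. The clone as replicate block gave 158 (ESC CB), 25 (ESC CB minus DN), 132 (iPSM CB minus DN) and 2 (iPSM minus ESC), and called 2 of the 10 Notch genes in iPSM CB, Dll4 and Jag2. It changed no other call among them, and was not run for the comparisons of untreated libraries, where each clone has 1 library. DESeq2 and the fit with no filter also called 2 in iPSM CB, DESeq2 called 2 in ESC CB, and with no filter 1 passed in ESC CB and 1 in ESC CB minus DN, Dll4 each time. Notch3 in iPSM against ESC was -0.00153 with RLE size factors, -0.045 with no filter and -0.0013 in DESeq2.

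Leaving out 1 library at a time, the genes called ranged from 7 to 90 (ESC CB; 9 without untreated clone 1, 7 without untreated clone 7, 23 without treated clone 1), 0 to 2 (ESC DN; 0 without untreated clone 5 or 6, 2 without treated clone 5), 0 to 8 (ESC CB minus DN, lower by over 1.5 times without any 1 of the 8 libraries), 1 to 2 (untreated ESC lines; 1 without CB clone 1), 83 to 678 (iPSM CB; 83 without treated clone 20, 678 without untreated clone 12), 1 to 2 (iPSM DN; 2 without treated clone 19), 16 to 167 (iPSM CB minus DN; 167 and 110 without untreated and treated clone 12, 16 to 24 without treated clone 20 or any DN library) and 0 to 1779 (untreated iPSM lines; 1779 without CB clone 12). Notch genes called ranged from 0 to 2 in iPSM CB and from 0 to 1 between untreated iPSM lines. Log2 fold changes ranged from -0.11 to 1.44 for Notch3 in ESC CB, from -0.98 to 0.91 for Dll1, -0.56 to 0.55 for Dll3 and -0.94 to 0.0549 for Jag1 in iPSM CB, and from -0.25 to 0.23 for Notch3 in iPSM against ESC. The causes were not tested.

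Depth limits Dll4, which had 0 to 2 counts in the DN iPSM libraries.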
